A study of Mus musculus with 10 samples.

Results

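The genes described here encode 2 activating receptors of natural killer (NK) cells and the adaptors and kinases that pass their signals on. They are Ncr1, Fcgr3, Tyrobp, Hcst, Fcer1g, Cd247, Clnk, Sh2d1a, Syk and Zap70, chosen by name, and 18 of the 45101 probe sets of the array carried one of these symbols alone. Each gene was represented by its brightest probe set, which makes 10 of the 18193 genes on the array. Gene expression was measured on 1-colour Affymetrix MOE430_2 arrays in cells of wild-type C57Bl/6 mice. The series held 3 arrays of splenic NK cells stimulated with 100 ng/mL recombinant mouse IL-15 for 24 h, 3 arrays of resting splenic NK cells, and 4 arrays of resting bulk splenocytes. NK cells of both conditions were flow sorted as NK1.1-positive, CD3-negative cells to a purity above 99%, per the labels. Each NK condition has 3 biological replicates per the design text, and the splenocyte chips come from 2 biological samples with 2 chips each. No NK cells cultured without IL-15 were analysed here, so IL-15 against resting NK cells is also 24 h of culture against none. NK RNA was amplified in 2 cycles and splenocyte RNA in 1, so cell type and amplification cannot be told apart.

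Many activating receptors of NK cells have no signalling motif of their own and pair in the membrane with small adaptors. Tyrobp (DAP12), Fcer1g (the Fc receptor gamma chain) and Cd247 (CD3 zeta) carry tyrosine motifs that, once phosphorylated, recruit the kinases Syk and Zap70. Hcst (DAP10) carries a different motif, which recruits phosphatidylinositol 3-kinase and Grb2 and serves the receptor NKG2D. Ncr1 (NKp46) recognises altered or infected cells, and Fcgr3 (CD16) binds the Fc part of antibodies. Clnk is a cytosolic adaptor related to SLP-76, and Sh2d1a (SAP) couples receptors of the SLAM family to Fyn. Several members are not confined to NK cells: Syk is used by B cells and myeloid cells, Zap70, Cd247 and Sh2d1a by T cells, and Tyrobp, Fcer1g and Fcgr3 by myeloid cells.

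All 9 NK-cell markers on the array were higher in both NK groups than in splenocytes, with median log2 differences of 3.13 in IL-15 NK and 3.62 in resting NK cells. The arrays of IL-15 NK cells had 51.1% to 56.5% of their signals above a floor of 179.8 signal units, the resting NK arrays 57.8% to 61.7% and the splenocyte chips 61.2% to 62.4%. The number of arrays limits the precision. Markers of other cells differed between the NK arrays. The summed signal of 9 B-cell markers was 949 to 1635 on the IL-15 NK arrays, with Cd79a, Ms4a1, Cr2 and Fcrla at the floor on all 3. It was 25066, 24732 and 2045 on resting NK replicates 1, 2 and 3, and 203609 to 246852 on splenocyte chips. The sum of 12 macrophage and monocyte markers was 1254 to 1985 on the IL-15 NK arrays, with 7 of the 12, Lyz1 among them, at the floor on all 3. On resting NK replicates 1, 2 and 3 it was 7343, 20818 and 29188, and on splenocyte chips 215941 to 240376. The sum of 10 T-cell markers was 6936 to 8733 on the IL-15 NK arrays and 16785 to 20405 on the resting NK arrays. On splenocyte chips it was 81610 to 98250. Cd3e, Cd4, Cd8b1 and Cd6 were too dim on the NK arrays to be tested between the NK groups. None of these genes exceeded the floor after IL-15. In resting NK cells Cd4 exceeded it on 0 arrays and Cd3e, Cd8b1 and Cd6 on 1 each. The brightest of the 10 in resting NK cells was Cd28. Its mean log2 signal was 12.37 in IL-15 NK cells, 13.44 in resting NK cells and 13.09 in splenocytes. Of the marker genes tested between IL-15 and resting NK cells, 4 of 6 B-cell, 7 of 8 macrophage and 3 of 5 T-cell genes were lower in IL-15 NK cells and 0 were higher. The 3 T-cell genes were Cd3d, Bcl11b and Cd28 (log2 differences -1.31, -1.57 and -1.07, limma adjusted p = 0.041, 0.011 and 0.014), while Cd3g and Cd8a did not pass. A sign of RNA or labelling quality also differed between the groups. For the Gapdh control, the ratio of 3-prime to 5-prime signal was 3.46 in IL-15 NK cells (2.9 to 3.81), 7 in resting NK cells (5.88 to 9.54) and 1.1 in splenocytes (1 to 1.39). For the beta-actin control it was 1.35 in IL-15 NK cells (1.28 to 1.49), 3.69 in resting NK cells (2.27 to 6.51) and 1.43 in splenocytes (1.34 to 1.59). The part of this quality sign in the results was not tested. In such bulk samples fewer cells of a type and less RNA per cell cannot be told apart.

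Promoter windows are shown for Clnk, Hcst and Syk, the 3 members that changed after IL-15 and therefore the ones whose upstream letters a reader may want beside the values. A window runs from 250 bases before an annotated start to 50 bases after it, 5-prime to 3-prime along the gene, and comes from RefSeq on build GRCm38.p6. Such windows were given for 8 of the 10 members, 13 in all. Capitals mark matches, on either strand, to short motifs searched by their letters. The motifs were a STAT motif (TTCNNNGAA, in 8.3% of 32851 windows of all genes), an AP-1 motif (TGANTCA, in 7.81%), an ETS core (AGGAA, in 66.7%), a T-box core (TCACAC, in 14.5%) and a RUNX core (TGTGGT, in 16.8%). Clnk lies on the minus strand at chr5:38876644-38876943, Hcst on the minus strand at chr7:30419805-30420104, and the Syk windows on the plus strand at chr13:52583187-52583486 and chr13:52596632-52596931.
Clnk: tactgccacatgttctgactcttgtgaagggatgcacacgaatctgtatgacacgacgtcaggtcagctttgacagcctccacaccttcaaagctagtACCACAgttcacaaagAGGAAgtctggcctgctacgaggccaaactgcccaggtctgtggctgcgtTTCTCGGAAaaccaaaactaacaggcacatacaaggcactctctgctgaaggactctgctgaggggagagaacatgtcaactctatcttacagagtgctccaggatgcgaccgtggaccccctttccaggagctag
Hcst: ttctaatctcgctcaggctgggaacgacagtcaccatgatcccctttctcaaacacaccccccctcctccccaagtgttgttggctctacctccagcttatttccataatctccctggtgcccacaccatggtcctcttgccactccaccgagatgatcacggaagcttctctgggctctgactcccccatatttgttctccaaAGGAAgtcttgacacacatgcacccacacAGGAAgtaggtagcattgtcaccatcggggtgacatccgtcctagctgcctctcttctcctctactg
Syk, first start: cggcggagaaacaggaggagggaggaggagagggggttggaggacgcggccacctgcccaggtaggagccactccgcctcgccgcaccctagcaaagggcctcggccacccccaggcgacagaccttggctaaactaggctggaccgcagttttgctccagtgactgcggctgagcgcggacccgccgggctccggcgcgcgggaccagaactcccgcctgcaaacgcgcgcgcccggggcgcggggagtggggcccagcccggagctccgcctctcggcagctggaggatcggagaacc
Syk, second start: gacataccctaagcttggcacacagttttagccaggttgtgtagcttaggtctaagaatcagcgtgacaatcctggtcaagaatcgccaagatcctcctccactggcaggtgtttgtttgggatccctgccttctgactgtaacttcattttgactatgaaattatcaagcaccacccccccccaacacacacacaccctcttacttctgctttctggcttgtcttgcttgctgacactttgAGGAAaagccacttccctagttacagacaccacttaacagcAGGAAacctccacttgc
The Clnk window held 1 STAT match 86 bases before the start, an ETS match 136 bases and a RUNX match 152 bases before it. It was the only one of the 13 member windows with a STAT match, and none held an AP-1 match. The Hcst window held 2 ETS matches, 46 and 17 bases before the start. The second Syk window held ETS matches 8 bases before and 34 bases after its start, and the first held none of the 5 motifs. No matches overlapped in these 4 windows. A match describes letters and is not evidence of binding. On the same build Tyrobp (chr7:30413782-30417582) and Hcst (chr7:30417712-30419854) are neighbours 129 bases apart.

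The first comparison, of IL-15 with resting NK cells, concerns the parts of this signalling equipment that differ in activated cells. Syk and Hcst fell, Clnk rose, and the other 7 members did not pass the test (limma, Benjamini-Hochberg adjustment over 11433 genes, threshold 0.05). Thus 1 of 10 members rose, where 14.2% of all genes tested were called higher, and 2 of 10 fell, where 12.1% were called lower. The members' shares are close to these, so the counts are no result about the members as a group. The median log2 difference of the members was -0.39, that of all genes -0.09 and that of the 9 NK-cell markers -0.49.

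Comparing NK cells with splenocytes asks which members mark the NK cell against the whole spleen. Ncr1, Tyrobp, Clnk, Sh2d1a and Zap70 were higher in resting NK cells than in splenocytes, and Hcst, Fcer1g, Cd247, Fcgr3 and Syk did not pass. The counts were 5 of 10 members higher, where 17.1% of 12938 genes were called higher, and 0 of 10 lower, where 21.5% were called lower. The members' median log2 difference was 1.09 and that of all genes -0.06. Between IL-15 NK cells and splenocytes the same 5 members were higher and Syk was lower, where 20.8% of 12465 genes were called higher and 23.5% lower. There the medians were 0.68 for the members and -0.10 for all genes. The comparisons share arrays and are given side by side.

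**Figure D1:**
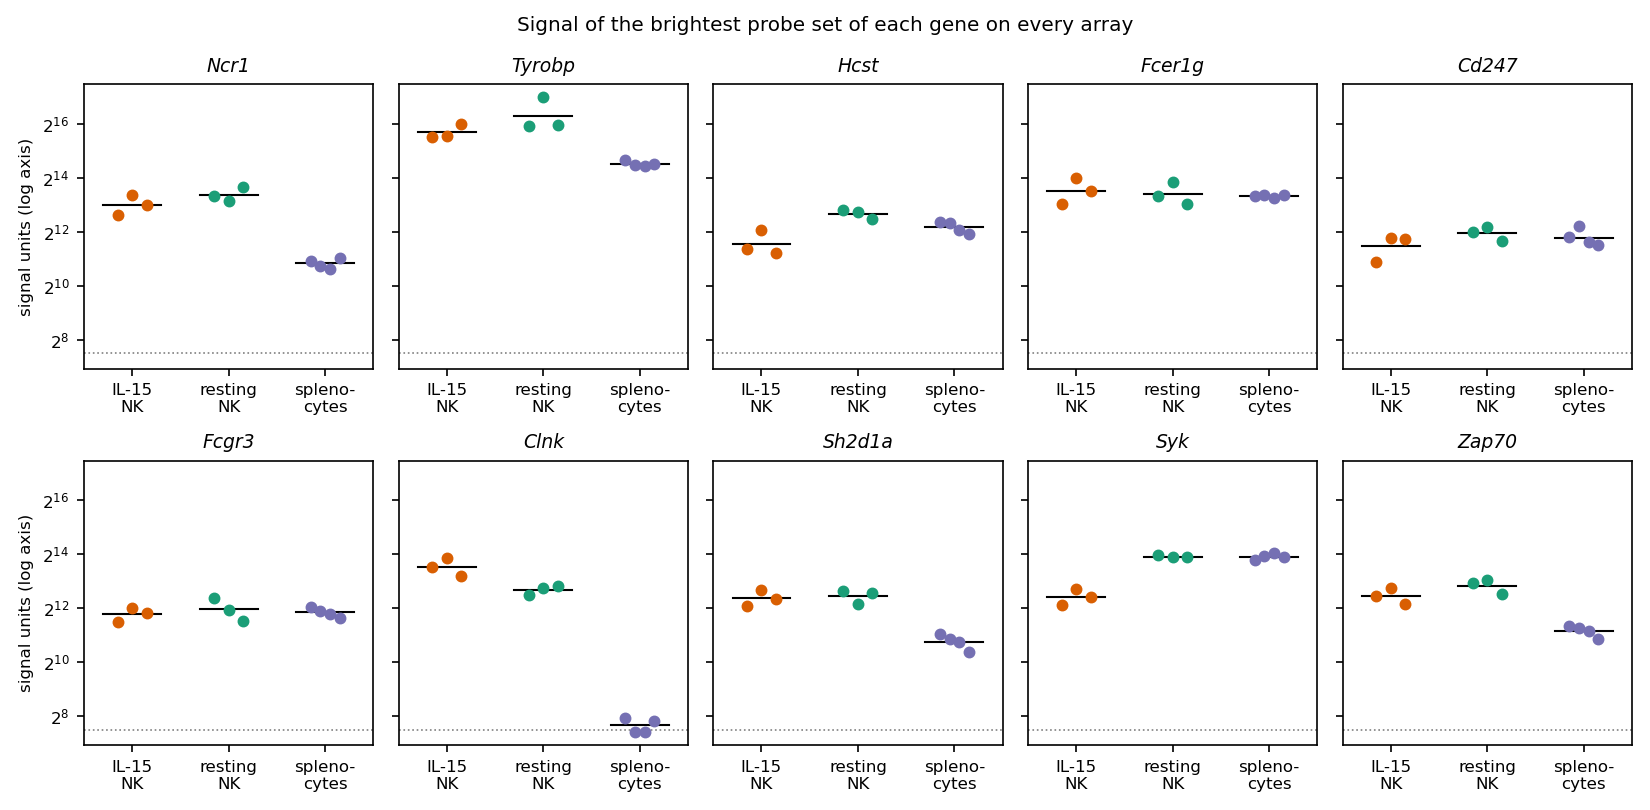
Signal of the brightest probe set of each of the 10 genes (log axis, signal units), with 1 point per array, a bar at the geometric mean and a dotted line at the floor of 179.8. Clnk lies between 9416 and 14725 on IL-15 NK arrays and between 5666 and 7269 on resting NK arrays, and near the floor on splenocyte chips, while Syk is lower on every IL-15 NK array than on any other.

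**Figure D2:**
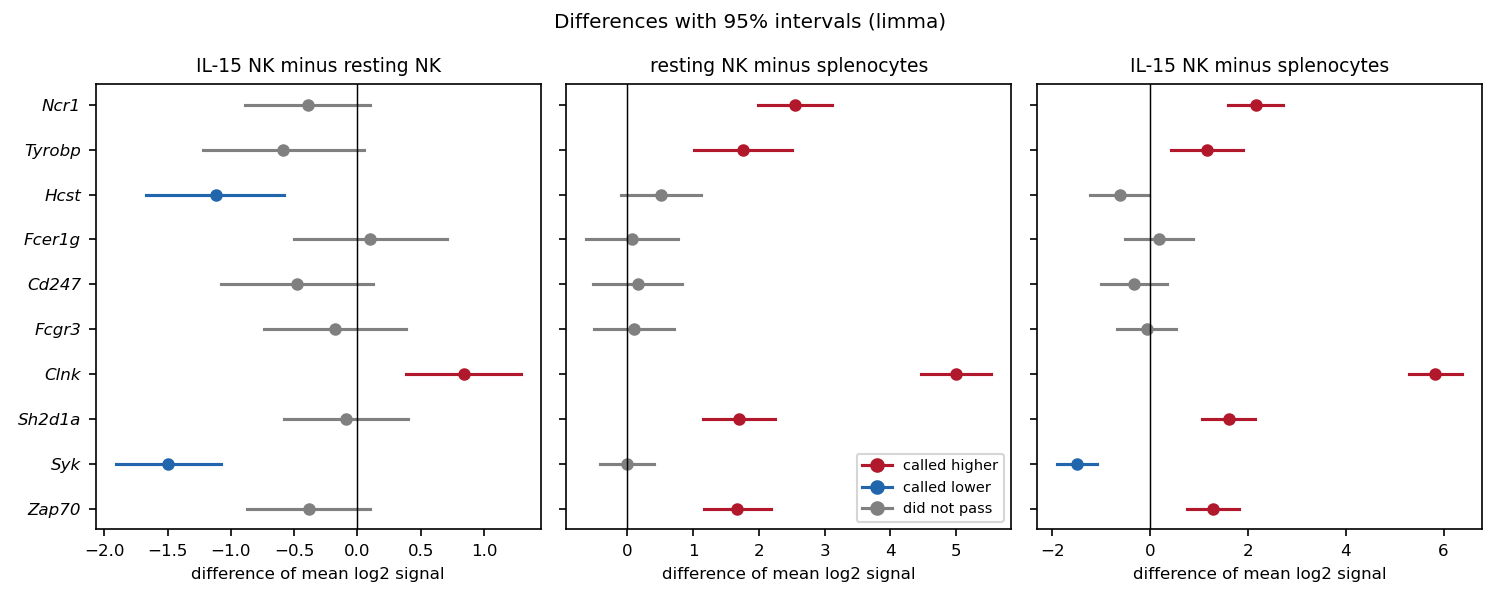
Difference of mean log2 signal with its 95% interval for each gene in each comparison, from limma. Red and blue mark genes called higher and lower, and grey marks genes that did not pass. Each panel has its own horizontal scale.

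Of the receptors, Ncr1 separated NK cells from splenocytes. Its signal was 6216, 10380 and 8104 on the IL-15 NK arrays, against 10332, 8967 and 12824 on the resting NK arrays and 1909, 1705, 1569 and 2091 on the splenocyte chips. Every NK array was above every splenocyte chip, and the NK groups overlapped. Ncr1 was 4.46-fold higher in IL-15 NK cells than in splenocytes (log2 difference 2.16 ± 0.24 SE, limma adjusted p = 2.3e-04) and 5.86-fold higher in resting NK cells than in splenocytes (2.55 ± 0.24 SE, limma adjusted p = 1.1e-04). Between IL-15 and resting NK cells it differed by -0.39 (95% interval -0.89 to 0.10, limma adjusted p = 0.23), which did not pass.

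Fcgr3, the low-affinity receptor for IgG, had nearly the same mean in all 3 groups. Its signal was 2859, 4098 and 3642 on IL-15 NK arrays, 5289, 3937 and 2970 on resting NK arrays and 4192, 3852, 3525 and 3195 on splenocyte chips. The 3 groups overlapped, and no difference passed. The 95% interval was -0.74 to 0.38 on the log2 scale for IL-15 against resting NK cells, -0.50 to 0.71 for resting NK cells against splenocytes and -0.68 to 0.53 for IL-15 NK cells against splenocytes.

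Among the membrane adaptors Tyrobp was higher in NK cells than in splenocytes. It had signals of 46784, 48120 and 64959 in IL-15 NK cells, against 61733, 128263 and 62874 in resting NK cells and 25642, 22436, 22287 and 23234 in splenocytes. Resting NK replicate 2 held the highest value, and no NK array overlapped the splenocyte chips. The fold was 2.26 in IL-15 NK cells (log2 difference 1.17 ± 0.32 SE, limma adjusted p = 0.019) and 3.39 in resting NK cells (1.76 ± 0.32 SE, limma adjusted p = 0.0032), each over splenocytes. Without IL-15 NK replicate 3 the first of these no longer passed (log2 difference 1.02, limma adjusted p = 0.058). After IL-15 Tyrobp differed by -0.59 from resting NK cells (95% interval -1.22 to 0.05), which did not pass (limma adjusted p = 0.16).

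Hcst, which lies next to Tyrobp in the genome, fell after IL-15. Its signal was 2627, 4259 and 2357 on IL-15 NK arrays, against 7176, 6800 and 5599 on resting NK arrays and 5283, 5084, 4244 and 3805 on splenocyte chips. All IL-15 NK arrays were below all resting NK arrays, and the highest of them, replicate 2, lay within the range of the splenocyte chips. Hcst was 2.18-fold lower in IL-15 than in resting NK cells (log2 difference -1.12 ± 0.25 SE, n = 3 each, limma adjusted p = 0.0078). Arrays scaled to a common median gave -0.78, which did not pass (limma adjusted p = 0.07). With resting NK replicate 3, the array with few B-cell markers, as the sole resting array the difference was -0.91. The difference between resting NK cells and splenocytes was 0.51 (limma adjusted p = 0.17) and that between IL-15 NK cells and splenocytes -0.62 (limma adjusted p = 0.094).

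Fcer1g gave 8331, 16032 and 11485 signal units in IL-15 NK cells, 10299, 14485 and 8280 in resting NK cells and 10296, 10353, 9702 and 10428 in splenocytes. The groups overlapped, and the splenocyte chips differed least among themselves, with an SD of 0.05 on the log2 scale against 0.47 in IL-15 NK and 0.41 in resting NK cells. IL-15 and resting NK cells differed by 0.10 (95% interval -0.50 to 0.71, limma adjusted p = 0.82). Neither comparison with splenocytes passed, with differences of 0.07 for resting NK and 0.18 for IL-15 NK cells.

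Cd247 depended on which probe set was read. Its brightest, 1426396_at, had signals of 1896, 3434 and 3401 in IL-15 NK cells, 4014, 4637 and 3248 in resting NK cells and 3534, 4674, 3170 and 2928 in splenocytes. These groups overlapped, and no comparison passed. A second probe set, 1420716_at, had 211, 430 and 261 in IL-15 NK cells, against 821, 1220 and 1160 in resting NK cells and 278, 332, 491 and 445 in splenocytes. There resting NK cells stood above both other groups without overlap. It was 3.66-fold lower in IL-15 than in resting NK cells (log2 difference -1.87 ± 0.34 SE, limma adjusted p = 0.0033 over all probe sets) and 2.79-fold higher in resting NK cells than in splenocytes (limma adjusted p = 0.013 over all probe sets). T cells also use Cd247, and the T-cell marker sums given above were lower on every IL-15 NK array than on any resting NK array. Cd3e, Cd4, Cd5, Cd6 and Cd8b1 were at or near the floor in both NK groups. Cd3d, Bcl11b and Cd28 were lower in IL-15 than in resting NK cells (log2 differences -1.31, -1.57 and -1.07). Between the NK groups Cd3g and Cd8a did not pass. The part of the T-cell markers in the fall of this probe set was not tested.

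Another Cd247 probe set, 1452539_a_at, lay under the floor on all 6 NK arrays, with signals of 111, 68 and 75 in IL-15 NK and 32, 174 and 38 in resting NK cells. The splenocyte chips had 1677, 1901, 1814 and 1134. It was therefore at least 8.9-fold lower in either NK group than in splenocytes (limma adjusted p = 9.8e-06 for IL-15 NK and 1.2e-05 for resting NK cells, over all probe sets). The last, 1426079_at, was near the floor in every group. Probe sets ending in _a_at match several transcripts of 1 gene by the array's design, and which part of the transcript each probe set reads was not analysed here.

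The cytosolic adaptor Clnk was the member with the largest differences from splenocytes and the one that rose after IL-15. Its signal was 11687, 14725 and 9416 on IL-15 NK arrays, against 5666, 6915 and 7269 on resting NK arrays and 246, 170, 170 and 226 on splenocyte chips. The 3 groups did not overlap, and 2 of the 4 splenocyte chips were above the floor. Clnk was 1.79-fold higher in IL-15 than in resting NK cells (log2 difference 0.84 ± 0.21 SE, n = 3 each, limma adjusted p = 0.014). That call was lost without IL-15 NK replicate 2 (0.67, limma adjusted p = 0.052) and without resting NK replicate 1 (0.73, limma adjusted p = 0.055), with the direction kept in each. With resting NK replicate 3 as the sole resting array the difference was 0.69. Over splenocytes the fold was at least 57 in IL-15 NK cells (limma adjusted p = 1.9e-06) and at least 31.9 in resting NK cells (limma adjusted p = 3.5e-06).

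Sh2d1a was higher in both NK groups than in splenocytes and differed little between them. It had 4309, 6464 and 5231 signal units in IL-15 NK cells, against 6370, 4510 and 6107 in resting NK cells and 2091, 1874, 1715 and 1326 in splenocytes. The NK groups overlapped each other and were clear of the splenocyte chips. It was 3.05-fold higher in IL-15 NK cells (limma adjusted p = 8.2e-04) and 3.24-fold higher in resting NK cells (limma adjusted p = 7.0e-04) than in splenocytes. The difference between IL-15 and resting NK cells was -0.09 (95% interval -0.58 to 0.40, limma adjusted p = 0.8).

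The kinase Syk fell after IL-15. Its brightest probe set, 1418261_at, had signals of 4482, 6676 and 5414 in IL-15 NK cells, against 15984, 15047 and 15124 in resting NK cells and 13956, 15621, 16761 and 15388 in splenocytes. The IL-15 NK arrays stood below all others, and the resting NK arrays lay within the range of the splenocyte chips. Syk was 2.82-fold lower in IL-15 than in resting NK cells (log2 difference -1.50 ± 0.19 SE, n = 3 each, limma adjusted p = 3.8e-04). On its brightest probe set Syk was lower by the same fold in IL-15 NK cells than in splenocytes (limma adjusted p = 2.7e-04). Resting NK cells and splenocytes differed by 0.00 on this probe set (95% interval -0.41 to 0.40).

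Because B cells also express Syk, its signal is set beside the B-cell markers. Resting NK replicate 3 had a B-cell marker sum of 2045, near the IL-15 NK arrays, and a Syk signal of 15124, within the narrow range of the other 2 resting arrays. With that replicate, chosen after seeing the data, as the sole resting array the difference was -1.47. That replicate also had the highest macrophage marker sum of the NK arrays. The part of either set of markers in the Syk signal was not tested.

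**Figure D3:**
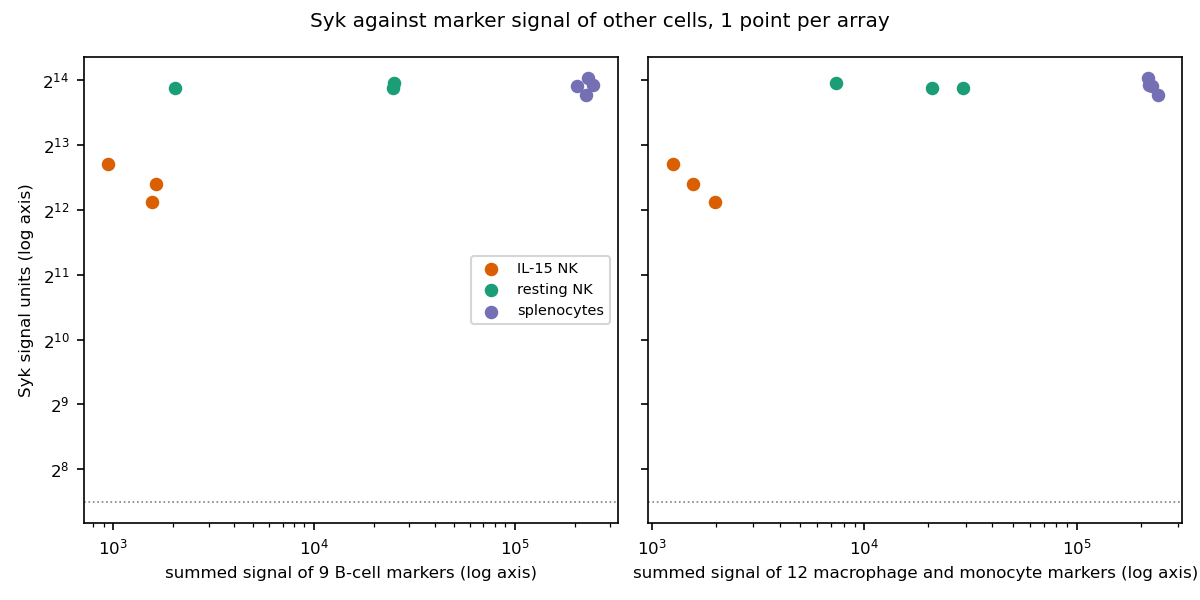
Signal of Syk on each array against the summed signal of 9 B-cell markers (left) and of 12 macrophage and monocyte markers (right), all axes logarithmic, with the floor dotted. Resting NK replicate 3 has a Syk signal of 15124 at a B-cell sum of 2045 and a macrophage sum of 29188.

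The other Syk probe sets also were lower after IL-15, but placed splenocytes differently. Probe set 1457239_at had 603, 825 and 827 in IL-15 NK cells, against 2757, 3199 and 2178 in resting NK cells and 1047, 1133, 1324 and 630 in splenocytes. It was 3.6-fold lower in IL-15 than in resting NK cells (limma adjusted p = 8.7e-04 over all probe sets) and 2.68-fold higher in resting NK cells than in splenocytes (limma adjusted p = 0.0046 over all probe sets). Probe set 1418262_at had 1178, 1490 and 1611 in IL-15 NK cells, 2980, 3306 and 3328 in resting NK cells and 5491 to 7344 in splenocytes. It was 2.26-fold lower in IL-15 than in resting NK cells (limma adjusted p = 0.0038 over all probe sets), and resting NK cells were 2.02-fold lower than splenocytes (limma adjusted p = 0.0034 over all probe sets). For 1425797_a_at, with 194, 191 and 136 in IL-15 NK and 416, 314 and 218 in resting NK cells, the NK difference did not pass (limma adjusted p = 0.1 over all probe sets). Its splenocyte signals of 822 to 1795 were above both NK groups. For IL-15 NK cells against splenocytes 1457239_at overlapped and did not pass (-0.42, limma adjusted p = 0.27 over all probe sets). There 1418262_at was 4.57-fold lower and 1425797_a_at at least 6.77-fold lower (limma adjusted p = 5.9e-05 and 2.0e-04 over all probe sets).

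Zap70, the kinase related to Syk, was higher in both NK groups than in splenocytes on its brightest probe set, 1422701_at. This probe set had 5595, 6835 and 4552 in IL-15 NK cells, against 7806, 8462 and 5815 in resting NK cells and 2615, 2462, 2270 and 1846 in splenocytes. The NK groups overlapped. The fold over splenocytes was 2.45 in IL-15 NK cells (limma adjusted p = 0.0022) and 3.19 in resting NK cells (limma adjusted p = 6.9e-04). The difference of -0.38 between IL-15 and resting NK cells (95% interval -0.87 to 0.10) did not pass (limma adjusted p = 0.23).

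A second Zap70 probe set, 1440178_x_at, did pass. It had 2533, 2089 and 1988 in IL-15 NK cells, against 4251, 4001 and 4202 in resting NK cells and 1742, 2004, 1861 and 1992 in splenocytes, and was 1.89-fold lower in IL-15 than in resting NK cells (limma adjusted p = 0.0076 over all probe sets). It was 2.19-fold higher in resting NK cells than in splenocytes (limma adjusted p = 0.0012 over all probe sets). For IL-15 NK cells against splenocytes its difference of 0.21 did not pass (limma adjusted p = 0.37 over all probe sets). The suffix _x_at marks probe sets that can match other transcripts. The last, 1439749_at, had 620, 746 and 852 in IL-15 NK cells, 2164, 976 and 1390 in resting NK cells and 1251, 342, 570 and 824 in splenocytes. Its difference between IL-15 and resting NK cells missed the threshold (limma adjusted p = 0.057 over all probe sets). Neither NK group passed against splenocytes (limma adjusted p = 0.83 for IL-15 NK and 0.079 for resting NK cells, over all probe sets). For IL-15 against resting NK cells the mean over all 3 gave a Zap70 difference of -0.76 that passed (limma adjusted p = 0.012). Whether Zap70 was lower after IL-15, or higher in IL-15 NK cells than in splenocytes, thus turned on the probe set. The part of the T-cell markers, whose sum was lower on the same arrays, was not tested.

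**Figure D4:**
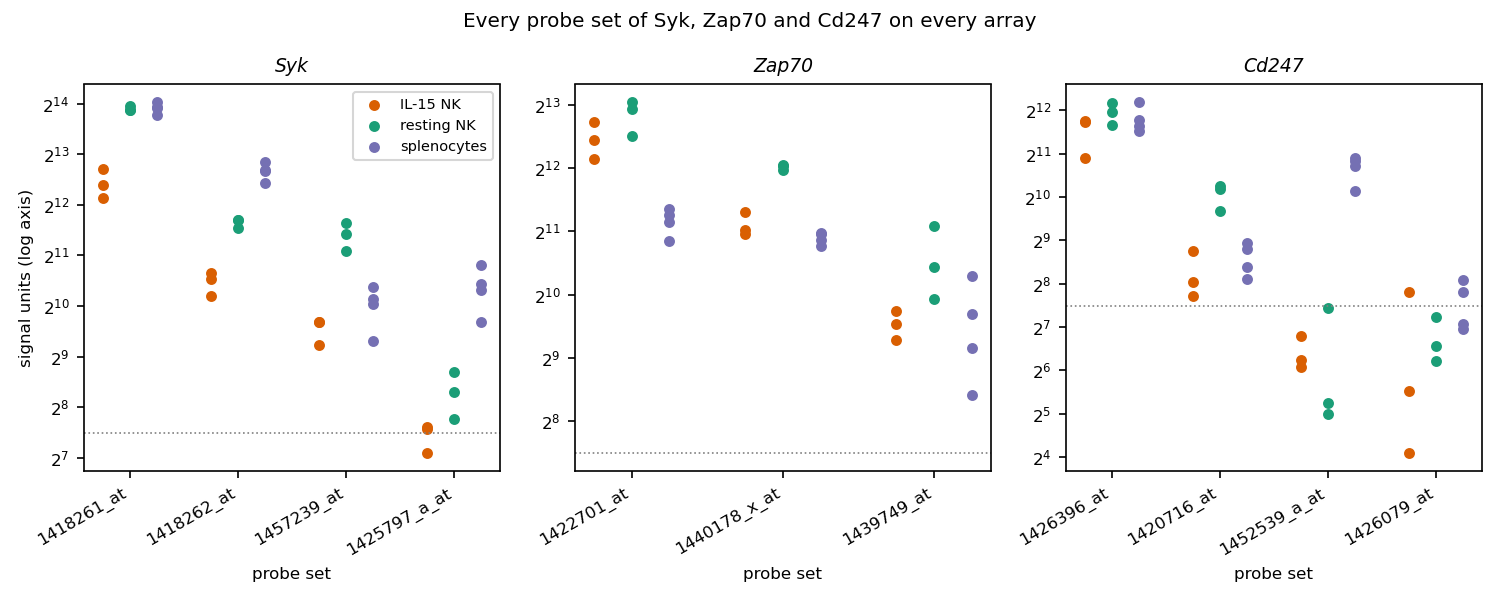
Signal of every probe set of Syk, Zap70 and Cd247 on each array (log axis), with 1 point per array and the floor dotted. The Syk probe sets are lower on IL-15 NK than on resting NK arrays, while their order against splenocytes differs, and 1452539_a_at of Cd247 is under the floor on all NK arrays.

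Over all probe sets tested singly, 1 of the members' 16 tested rose and 6 fell between IL-15 and resting NK cells, where 12.2% of 20980 probe sets were called higher and 11.6% lower. Those that fell were 3 of Syk and 1 each of Cd247, Hcst and Zap70. In resting NK cells against splenocytes 8 of 17 were higher and 3 lower, where 15% of 23940 were called higher and 23.1% lower. In IL-15 NK cells against splenocytes 5 of 18 were higher and 4 lower, where 17.1% of 23116 were called higher and 25.2% lower. Probe sets of 1 gene are not independent.

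Pairs of members with like roles were set against each other within each array. Only the change of such a difference can be read, since signals of different probe sets have no common scale. The log2 signal of Zap70 minus that of Syk was 0.32, 0.03 and -0.25 on IL-15 NK arrays, against -1.03, -0.83 and -1.38 on resting NK arrays. The groups did not overlap, and their means of 0.03 ± 0.29 and -1.08 ± 0.28 (SD, n = 3 each) differed by 1.12. The exact 2-sided permutation test gave p = 0.1, the smallest that 3 against 3 arrays allow, or 0.15 adjusted over the 3 pairs examined. With the mean of all probe sets of each gene the difference was 0.55.

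Fcer1g minus Cd247 was 2.14, 2.22 and 1.76 on IL-15 NK arrays, against 1.36, 1.64 and 1.35 on resting NK arrays, a difference of 0.59 without overlap (exact permutation p = 0.1, adjusted 0.15, with 0.1 the smallest possible). Tyrobp minus Hcst was 4.15, 3.50 and 4.78 on IL-15 NK arrays, against 3.10, 4.24 and 3.49 on resting NK arrays. This pair overlapped (difference 0.54, exact permutation p = 0.4, the same after adjustment).

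Genes that act downstream of these adaptors moved both ways after IL-15. Of 50 signalling genes tested, 5 were called higher, 8 lower and 37 neither, against the 14.2% and 12.1% of all genes, and the list's median of -0.13 was near that of all genes, -0.09. Lat2, an adaptor of B and myeloid cells related to LAT, had 1961, 2220 and 3342 in IL-15 NK cells, against 1148, 1024 and 1059 in resting NK cells (2.27-fold higher, limma adjusted p = 0.0086). With the mean of all probe sets the Lat2 difference was 0.34 and did not pass (limma adjusted p = 0.15). The phosphatase gene Ptpn6 (SHP-1), which opposes these kinases, was 2.01-fold higher and the T-cell adaptor gene Sh2d2a 1.97-fold higher (limma adjusted p = 0.022 and 0.029). Nck1, which links receptors to the actin cytoskeleton, was 1.76-fold higher (limma adjusted p = 0.022), but its other 2 tested probe sets did not make that call. The Nck1 mean over all probe sets was -0.29, in the other direction. Nck1 lost its call without IL-15 NK replicate 1 or 3 (limma adjusted p = 0.062 and 0.095). The call of Ptpn6 was lost with the mean of all probe sets (0.48, limma adjusted p = 0.17) and without IL-15 NK replicate 2 or resting NK replicate 1 or 3 (limma adjusted p = 0.065, 0.064 and 0.058), and Sh2d2a without any IL-15 NK array (0.055 to 0.1) or resting NK replicate 3 (0.053).

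The docking protein genes Gab3 and Gab2 fell. Gab3 had 1272, 2379 and 1341 in IL-15 NK cells, against 4886, 6164 and 4835 in resting NK cells and 608 to 872 in splenocytes. It was 3.3-fold lower in IL-15 than in resting NK cells (log2 difference -1.72 ± 0.27 SE, limma adjusted p = 0.0014), and Gab2 was 2.84-fold lower (limma adjusted p = 0.0014), a call its other 2 tested probe sets did not share. Sla (SLAP), an adaptor that dampens antigen receptor signals, had 14066, 18315 and 17810 in IL-15 NK cells, against 41914, 40580 and 39483 in resting NK cells, and was 2.45-fold lower (limma adjusted p = 5.0e-04). Btk, a kinase of B cells and myeloid cells, had 62, 76 and 208 in IL-15 NK cells, against 670, 368 and 325 in resting NK cells. It was at least 2.28-fold lower (limma adjusted p = 0.019), and this call was lost with the floor at the 50th percentiles (-0.59, limma adjusted p = 0.14), without resting NK replicate 1 (limma adjusted p = 0.067) or without IL-15 NK replicate 1 or 2 (limma adjusted p = 0.07 and 0.066). On the probe sets read here Gab3 and Gab2 were dimmer on every splenocyte chip than on any resting NK array, while Btk was brighter there. The part of the B-cell and macrophage markers in the Btk result was not tested.

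**Figure D5:**
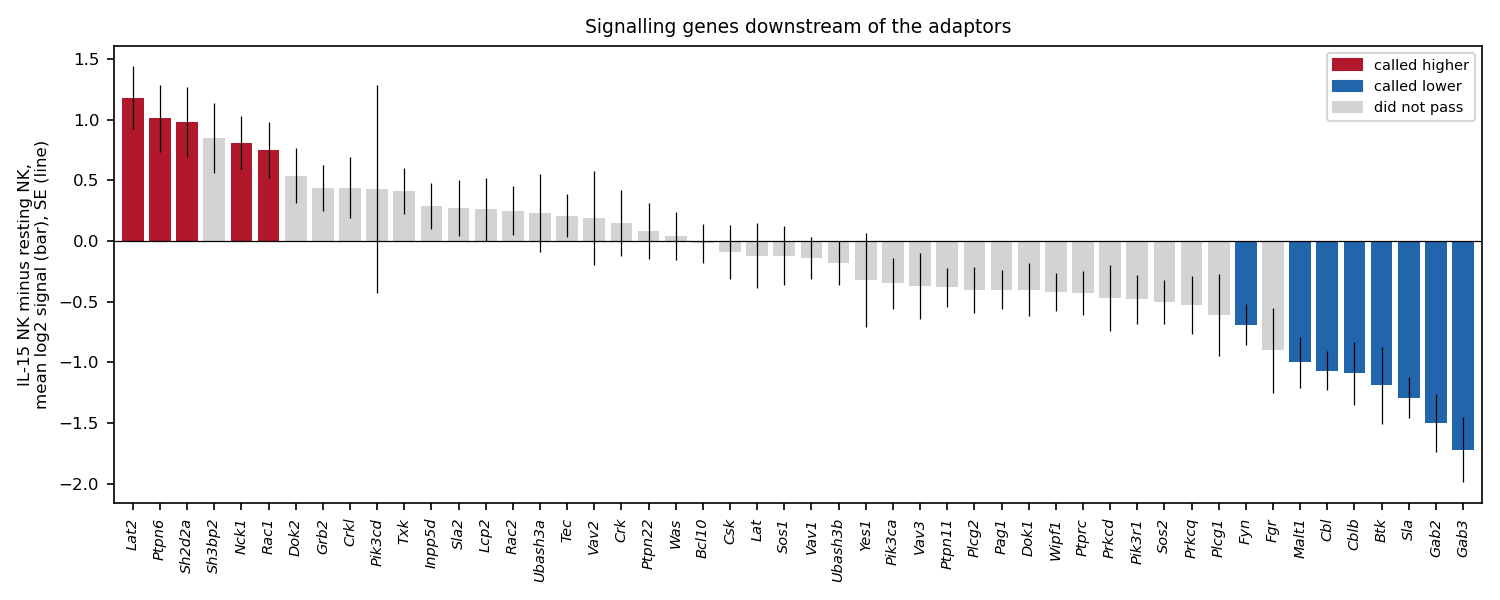
Difference of mean log2 signal between IL-15 and resting NK cells for the 50 signalling genes tested (bars, with SE as lines), in falling order. Red bars are the 5 called higher, blue bars the 8 called lower and grey bars did not pass. Gab3 has the most negative difference, -1.72, and Lat2 the highest, 1.18.

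Against splenocytes 20 of the 50 signalling genes were higher and 11 lower in resting NK cells, and 19 were higher and 13 lower in IL-15 NK cells. Over all genes 17.1% were called higher and 21.5% lower in resting NK cells, and 20.8% higher and 23.5% lower in IL-15 NK cells. Ubash3b (STS-1), a phosphatase that acts on Syk and Zap70, had 6369, 8624 and 7423 in IL-15 NK cells, 8223, 9361 and 7766 in resting NK cells and 881 to 1537 in splenocytes. It was 6.2-fold higher in IL-15 NK cells (limma adjusted p = 3.4e-05) and 7.04-fold higher in resting NK cells (limma adjusted p = 2.6e-05) than in splenocytes. Plcg1, a phospholipase of T-cell receptor signals, was 9.9-fold lower in resting NK cells (limma adjusted p = 2.8e-04) and at least 15.1-fold lower in IL-15 NK cells (limma adjusted p = 1.0e-04). Its other tested probe set made neither call. Btk was 17.9-fold lower in resting NK cells (limma adjusted p = 4.7e-05) and at least 40.8-fold lower in IL-15 NK cells (limma adjusted p = 1.2e-05).

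A list of receptors, only some of which use these adaptors or SAP, also held adhesion receptors and the other IgG Fc receptors. Its genes fell or did not pass after IL-15. Of 13 tested 0 rose and 4 fell, where 14.2% of all genes were called higher and 12.1% lower, with a median of -0.73 against -0.09 over all genes. Cd2, an adhesion receptor, had 10998, 14822 and 16630 in IL-15 NK cells, against 28620, 31694 and 29254 in resting NK cells (2.14-fold lower, limma adjusted p = 0.0022). Klra8 (Ly49H), which pairs with DAP12, was 2.13-fold lower (limma adjusted p = 0.0041) on a probe set of the _x_at kind, which may read related Ly49 genes. Slamf6, a SAP-binding receptor, had 263, 171 and 106 in IL-15 NK cells, against 1074, 635 and 679 in resting NK cells, and was at least 3.79-fold lower (limma adjusted p = 0.0016).

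Fcgr2b, the inhibitory Fc receptor that lacks an activating adaptor, differed most. Its signal was 143, 504 and 614 in IL-15 NK cells, against 7368, 7933 and 10638 in resting NK cells and 17935 to 21031 in splenocytes. No groups overlapped, but the difference of -1.18 between resting NK cells and splenocytes did not pass (limma adjusted p = 0.082). Fcgr2b was at least 22.4-fold lower in IL-15 than in resting NK cells (log2 difference -4.48 ± 0.42 SE, limma adjusted p = 7.1e-05) and at least 50.7-fold lower than in splenocytes (limma adjusted p = 5.4e-05). B cells and macrophages express Fcgr2b. Its highest resting signal was on replicate 3, which had the lowest B-cell marker sum (2045) and the highest macrophage sum (29188) of the resting arrays, and their part in the result was not tested.

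Of 14 receptors tested against splenocytes, 5 were higher and 4 lower in resting NK cells, and 4 were higher and 5 lower in IL-15 NK cells. The shares of all genes called were 17.1% higher and 21.5% lower in resting NK cells, and 20.8% higher and 23.5% lower in IL-15 NK cells. Klra8 had 40889, 48356 and 63279 in IL-15 NK cells, 94467, 103384 and 124127 in resting NK cells and 2310 to 3448 in splenocytes. It was 17.9-fold higher in IL-15 NK cells (limma adjusted p = 6.4e-06) and 38.1-fold higher in resting NK cells (limma adjusted p = 2.6e-06) than in splenocytes. Crtam, an adhesion receptor, was 6.27-fold higher in IL-15 NK and 4.84-fold higher in resting NK cells (limma adjusted p = 2.7e-05 and 6.3e-05). Cd160 was 7.29-fold higher in resting NK cells (limma adjusted p = 0.001), a call that 1 of its 3 other tested probe sets shared, and its mean over all probe sets gave a log2 difference of 1.52. Slamf6 was at least 28.8-fold lower in IL-15 NK cells and 7.6-fold lower in resting NK cells than in splenocytes (limma adjusted p = 1.4e-05 and 2.2e-04). Fcgr4, an activating Fc receptor of myeloid cells that uses the Fc receptor gamma chain, was 6.95-fold lower in resting NK cells (limma adjusted p = 5.8e-05). It had 222, 284 and 277 in resting NK cells against 1631 to 1967 in splenocytes, whereas Fcgr3, which uses the same chain, did not pass in either comparison with splenocytes.

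Genes with the pattern most like a member were found by the root mean square difference of log2 signals, each gene centred on its own mean, over the 10 arrays and among 12578 genes. Nearest to Zap70 were Atp6v0a2 at 0.14, Sin3b at 0.16 and Kif1c at 0.18. Nearest to Ncr1 were Rinl at 0.18 and Ptpre and Chn2 at 0.19 each. For Tyrobp they were Clptm1l at 0.18 and Urgcp and Fip1l1 at 0.20 each. For Syk they were Hivep1 and Ccng2 at 0.20 each and Mndal at 0.21. Ccng2, for example, had mean log2 signals of 12.74 in IL-15 NK cells, 14.10 in resting NK cells and 14.12 in splenocytes, beside 12.41, 13.91 and 13.91 for Syk.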

How the data were processed

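Total RNA was hybridised to 1-colour arrays, and the authors deposited a table of linear intensities, 1 for each probe set on each array. The submitters' processing notes name GCOS 1.4. How probes were summarised, and the genome build, are not stated in these sources. The trimmed mean of every array lay between 1499.5 and 1500.6, which shows that the deposited intensities share 1 scale, and they were not scaled again. A change of total RNA in a cell cannot be seen after such scaling.

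Signals under the median of the arrays' 40th percentiles (179.8) were raised to that floor before log2. Genes were named by GEO's platform annotation, where 34945 probe sets had 1 symbol, 932 several and 9211 none. Genes above this floor on 3 or more of the arrays in a comparison entered the fit by limma (version 3.58.1, R 4.3.3, lmFit, then eBayes with trend, 2-sided, adjusted by Benjamini-Hochberg over all genes, threshold 0.05). Folds are ratios of geometric means, and at least marks a fold against a group with an array at the floor. In comparisons with splenocytes 1 variance was shared by the 3 groups, chips were averaged in pairs under the 3 possible pairings, and the largest p was kept. The fits were also run on simulated data with independent noise on every array. Those data did not model 2 chips of 1 splenocyte sample, and no result here rests on them.

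The members, lists, motifs and tests were chosen with earlier results of these data known. The text names all members, up to 4 list genes each way past the threshold with the largest differences between IL-15 and resting NK cells, up to 2 each way in each splenocyte comparison, and the 3 genes nearest to Ncr1, Tyrobp, Syk and Zap70. Alternatives changed the floor, filter, scaling, probe set rule, trend, block, treatment of chips and arrays used.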

Additional observations from a re-analysis of the deposited data

Results flagged for a closer look

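The 16 probe sets of the members that were above the floor on all 4 splenocyte chips were examined for a chip far from the other 3 by Dixon's gap criterion, and 0 were found. The NK groups, with 3 arrays each, are too small for this examination.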

How the results depend on the processing

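Of 540 results for the members under the alternatives run, 527 kept their side of the threshold, 9 lost the call, 4 gained one and 0 called differences reversed. Of the 527, 19 that did not pass changed sign, all of Fcer1g, Fcgr3, Cd247 or Sh2d1a (Syk in resting NK cells against splenocytes, at 0.00, was not counted). Syk in IL-15 against resting NK cells passed under all 17 of its alternatives (-1.64 to -1.15). With no filter on dim genes 1646 genes and 1 member, Syk, passed there, as more genes were tested, with 7 signalling list genes in place of 13, and Hcst (limma adjusted p = 0.075) and Clnk (0.08) did not. Tyrobp in IL-15 NK cells against splenocytes did not pass either (0.069). Every probe set singly gave 5004 calls for IL-15 against resting NK cells, 9129 for resting NK cells against splenocytes and 9797 for IL-15 NK cells against splenocytes. Leaving out 1 array gave 1963 to 3241 genes for IL-15 against resting NK cells, the lowest without IL-15 NK replicate 3. Resting NK replicate 3 alone, chosen after seeing the data, is counted among the alternatives above. As 1 array it gives no spread of its own. There the difference between IL-15 and resting NK cells was -1.47 for Syk, -0.91 for Hcst and 0.69 for Clnk. Hcst in IL-15 NK cells against splenocytes passed as lower with 4 chips as 4 samples (0.023) and without IL-15 NK replicate 2 (-0.88, 0.012), as did Cd247 with the mean of all probe sets (0.0043). That mean gave 0.55 for Zap70 minus Syk. A common median moved the median of all genes to 0.20, 0.14 and 0.38 in the 3 comparisons, in the order above, from -0.09, -0.06 and -0.10, and the share of calls that were higher to 81.2%, 57.6% and 73.3%, from 53.9%, 44.3% and 47%.

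Correlations of deviations were 0.10, 0.28 and 0.07 between IL-15 and resting NK arrays of the same replicate number. Between arrays of different numbers they ran from -0.22 to 0.15. Whether the replicate numbers mark pairs was not settled. A replicate block gave 3421 calls and 3 members, against 3003 calls and 3 members without it. Of 794 results for named list genes, tested under alternatives chosen after seeing the data, 46 lost the call and 3 reversed, all with the mean of all probe sets: Nck1 in IL-15 against resting NK cells (-0.29), Sla in resting NK cells against splenocytes (-0.42) and Gab2 in IL-15 NK cells against splenocytes (-0.02). The cause was not tested.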

Other observations

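Pik3cd, the catalytic delta subunit of phosphatidylinositol 3-kinase, varied widely between the resting NK arrays. Its brightest probe set, 1443798_at, had signals of 81071, 51323 and 47436 in IL-15 NK cells, against 118237, 6809 and 101203 in resting NK cells and 3397, 3220, 4013 and 3576 in splenocytes. Resting NK replicate 2 was far below the other 2 resting arrays and above every splenocyte chip. Pik3cd was 16.5-fold higher in IL-15 NK cells (limma adjusted p = 0.017) and 12.2-fold higher in resting NK cells (limma adjusted p = 0.029) than in splenocytes. The resting NK call was lost without resting NK replicate 1 (log2 difference 2.89, limma adjusted p = 0.079) or 3 (limma adjusted p = 0.078), where the difference with all arrays was 3.61, with the 2 groups fitted alone (0.075) and with no filter on dim genes (0.11). The IL-15 NK call was lost without IL-15 NK replicate 1 (3.80, limma adjusted p = 0.051) and with no filter (0.073). Of its other 4 tested probe sets 1 made each call. With the mean of all probe sets the differences were 0.65 and 0.53 on the log2 scale and did not pass (limma adjusted p = 0.083 and 0.16). IL-15 and resting NK cells differed by 0.43 ± 0.86 SE (limma adjusted p = 0.76).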
